A study of Mus musculus with 2 samples.

Results

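Outflow-tract-like myocardium was described in single-cell RNA sequencing data from whole mouse hearts at E11.5. The cells were selected on their own counts. A cell belonged to the group when at least 3 of the 5 markers Rspo3, Bmp4, Sema3c, Isl1 and Rgs5 had a unique molecular identifier (UMI, 1 counted RNA molecule), when the sarcomere genes Tnnt2, Myh6, Myh7, Actc1 and Myl7 together made up at least 2% of its UMIs, and when fewer than 4 of 6 endothelial genes were detected. Of the 11640 cells for which the authors deposited embedding coordinates, 817 met the rule, 447 in the control and 370 in H2CKO. The 5313 cells that met the sarcomere and endothelial parts of the rule but had fewer than 3 markers are called the other cardiomyocytes.

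The study removed Hand2, a transcription factor gene of the embryonic heart, with a Cre recombinase expressed from Nfatc1, which is active in the endocardium, the inner lining of the heart. Control embryos were Hand2fx/+ R26RmTmG/wt, with 1 floxed Hand2 allele and no Cre. H2CKO embryos were Nfatc1Cre/wt Hand2fx/fx R26RmTmG/wt. Both genotypes therefore carried a floxed Hand2 allele and 1 copy of the mTmG reporter, a 2-colour reporter that switches from Tomato to GFP in cells where Cre has acted. There was 1 library per genotype, so no difference has a replicate check, and no test was made. The labels give neither the number nor the sex of the embryos in a library, and RNA from Y-linked genes was present in both. Embryos were kept on ice for approximately 3 hours before TrypLE dissociation, per the labels' protocols.

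The outflow tract is the muscular tube through which the embryonic ventricles empty. Its myocardium is added late, from Isl1-positive progenitors of the second heart field, and is later remodelled and partly replaced by smooth muscle while the tube is divided into aorta and pulmonary trunk. BMP and TGF-beta ligands made by this muscle act on the overlying endocardium, part of which becomes the mesenchyme of the outflow cushions, and Sema3c guides the neural crest cells that enter the tract.

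The libraries held 195825720 UMIs in 14114 control barcodes and 201477256 UMIs in 13885 H2CKO barcodes. Outflow-tract-like cells had a median of 29664 UMIs in the control and 18293.5 in H2CKO, and the other cardiomyocytes 24379 and 17443.5. The control group therefore had the greater depth. Barcodes present in both matrices numbered 57, of which 15 had coordinates in both and 0 were outflow-tract-like in both. Levels are given as CPM, the UMIs of a gene scaled to a common total for the UMIs summed over the cells of a group. All intervals are exact 95% intervals that cover counting error only.

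Outflow-tract-like cells made up 19.54% of control cardiomyocytes (17.93 to 21.22, Clopper-Pearson interval, 447 of 2288 cells) and 9.63% of H2CKO cardiomyocytes (8.716 to 10.61, 370 of 3842 cells). As a share of all cells with coordinates they made up 8.266% in the control and 5.937% in H2CKO. The smaller share in H2CKO thus held on both denominators, although cardiomyocytes as a whole were 42.31% of control cells and 61.65% of H2CKO cells. Because a marker is found more often in a deeper cell, each cell was also thinned to a fixed number of UMIs before the rule was applied. At 5000 UMIs the shares among cardiomyocytes were 7.511% (6.464 to 8.668) and 4.189% (3.58 to 4.869), with 0 control and 25 H2CKO cells too shallow to enter. At 10000 UMIs, a depth chosen after seeing the data, they were 12.35% and 5.931%, with 692 and 1588 cells left out. The control share was the higher at each depth, and the size of both shares depended on the depth. Among cardiomyocytes with at least 5% sarcomere UMIs the shares were nearer to each other, at 60.83% (73 of 120) and 53.98% (61 of 113). With 1 library each, a difference between genotypes and a difference in which parts of the hearts were recovered cannot be told apart.

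The number of markers per cardiomyocyte fell off without a gap at the limit of 3. In the control, 1088 cardiomyocytes had 0 markers, 499 had 1, 254 had 2, 215 had 3, 194 had 4 and 38 had 5. In H2CKO the numbers were 2132, 1016, 324, 225, 137 and 8. Genes outside the rule varied with the number of markers. Those with the most extreme ratios across the limit, such as Tnc and Sln, had to differ there by their choice. Tnc, which encodes the matrix protein tenascin-C, stood at 1.58, 4.31, 19.5, 81.5, 131 and 198 CPM in control cells with 0 to 5 markers. In H2CKO it stood at 0.520, 2.46, 12.2, 66.3, 86.8 and 62.1 CPM, the last over 8 cells. Sln, in H2CKO, was at 59.4 CPM with 3 markers, 53.3 with 4 and 17.7 with 5, and control Col3a1 was highest with 3 markers, at 86.2 CPM. Summed levels in cells with 2 markers were thus between those of their neighbours for Tnc, and whether single cells or a mixture of cells gave them was not tested. On the sarcomere limit, the 47 control and 37 H2CKO cells with 2 to 2.5% sarcomere UMIs stood at 94.1 and 64.7 CPM of Tnc. The 27 control and 6 H2CKO cells with 3 or more markers and 1.5 to 2% stood at 89.0 CPM and 0. Below 2% in all were 401 of the 864 control and 118 of the 499 H2CKO cells with 3 or more markers. On the endothelial limit, 3 control cells and 1 H2CKO cell lay just inside, with 3 genes, and 10 and 2 just outside, with 4.

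**Figure D1:**
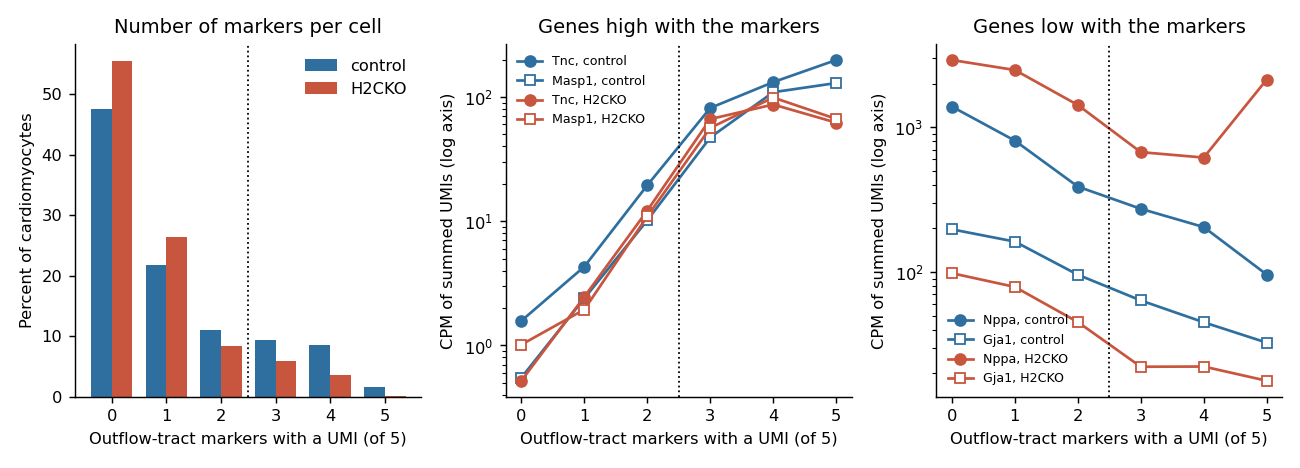
Left, percent of cardiomyocytes (vertical axis) with 0 to 5 detected outflow-tract markers (horizontal axis) in each library; the dotted line is the limit of the rule. Middle and right, CPM on a log axis of Tnc and Masp1, and of Nppa and Gja1, in the same cells. These genes had some of the most extreme ratios across the limit, so a change there is part of the choice. Control Tnc runs from 1.58 CPM with 0 markers to 198 CPM with 5, and the H2CKO point at 5 markers rests on 8 cells.

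Of the markers themselves, Rspo3, a secreted activator of Wnt signalling, was detected in 97.3% of control and 96.5% of H2CKO outflow-tract-like cells. Bmp4, a BMP ligand, was detected in 95.1% and 96.5%, and Sema3c in 94.0% and 89.5%. Isl1, the transcription factor of second heart field progenitors, was detected in 58.4% and 48.7%. Rgs5, a regulator of G-protein signalling, was detected in 15.7% and 10.3% and contributed little. In the other cardiomyocytes Isl1 was detected in 1.47% (control) and 0.662% (H2CKO). As a measure of free RNA, erythroid cells, defined as barcodes with at least 30% globin UMIs, were examined at median depths of 18774 and 13531 UMIs. Of these, 0.690% of 2897 control and 0.335% of 5375 H2CKO cells held 3 or more of the markers, and Isl1 was detected in 0.725% and 0.409%.

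In the deposited embedding the cells lay together, at the same place in both libraries. The median outflow-tract-like cell had 80.0% outflow-tract-like cells among its 15 nearest neighbours of the same library in the control and 66.7% in H2CKO, whereas the median for other cardiomyocytes was 0 in both. Against the nearest cells of the other library the values were 66.7% for control cells and 86.7% for H2CKO cells. The group made up the greater part of the neighbours, ties included, for 320 control cells (71.6%) and 265 H2CKO cells (71.6%). The remaining cells were scattered over the large cardiomyocyte field. The coordinates were computed by the authors from these same cells, so the position is a description.

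**Figure D2:**
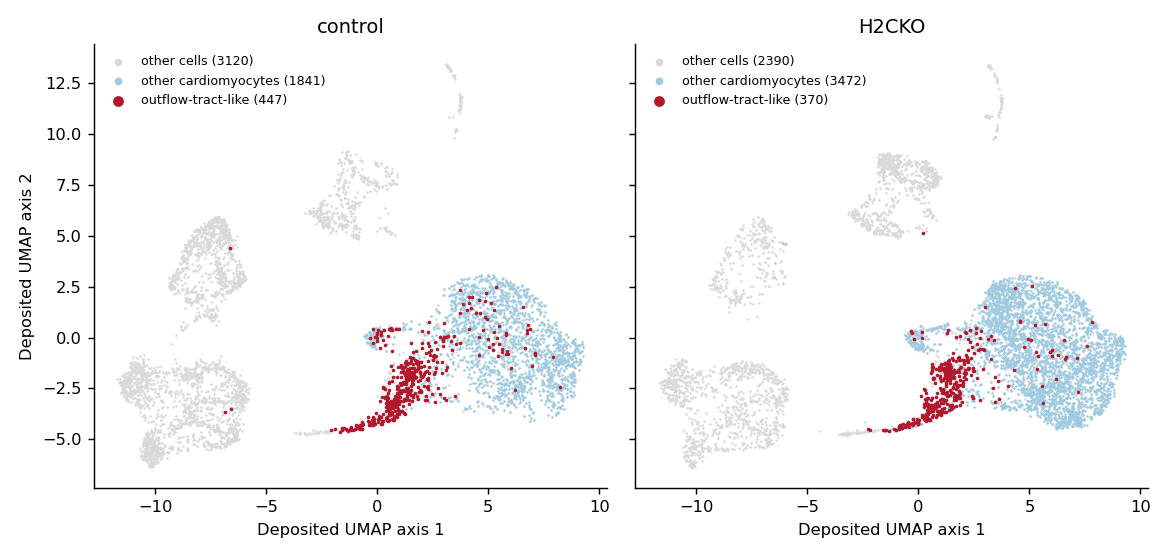
The authors' deposited embedding (2 axes without units), control left and H2CKO right; red points are outflow-tract-like cells (447 and 370), blue points other cardiomyocytes (1841 and 3472) and grey points all other cells with coordinates. The red cells form a tongue at the lower left of the cardiomyocyte field in both libraries, with a minority scattered through it.

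The outflow-tract-like cells were then compared with the other cardiomyocytes of the same library. Since both groups were defined on the cells' counts, these values describe the group and were not tested. A gene counted as past 2-fold when the log2 ratio of (CPM + 5) was at least 1 in size in both libraries, among 5202 compared genes, those with at least 20 CPM and 20 UMIs in the higher group of each library; the 16 genes of the rule were left out. There were 80 genes past 2-fold higher (1.54%) and 14 past 2-fold lower (0.269%). The counts include genes that reached 20 CPM in 1 group alone, whose direction was set by the filter. No gene was past 2-fold in opposite directions in the 2 libraries (0 genes). The median gene had a log2 ratio of 0.03 in the control and 0.02 in H2CKO, and 45.64% and 45.92% of all compared genes were below 0.

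Among the 80 higher genes, Tnc and Masp1 had the highest ratios. Tnc, Masp1, Eln, Sparcl1, Sln and Mybpc1 reached 20 CPM only in the outflow-tract-like cells, so their direction was set by the filter. Tnc was at 114 CPM in control and 73.5 CPM in H2CKO outflow-tract-like cells, against 5.30 and 2.35 CPM in the other cardiomyocytes, with log2 ratios of 3.53 and 3.42. Masp1, which encodes a serine protease of the lectin complement pathway, was at 81.7 and 71.7 CPM against 2.66 and 2.33 CPM (3.50 and 3.39). Tnc had a UMI in 298 control and 185 H2CKO outflow-tract-like cells, and in 132 and 87 of the other cardiomyocytes. Positive cells of both genes thus lay outside the group too, with 87 and 112 other cardiomyocytes for Masp1. Eln, the gene of elastin, was at 44.5 and 26.7 CPM against 2.72 and 1.61 CPM. Sparcl1, a matricellular protein gene, was at 50.1 and 32.7 CPM against 3.12 and 3.42 CPM. Clu, which encodes the secreted chaperone clusterin, was at 304 and 434 CPM against 43.6 and 77.8 CPM. Fn1 (fibronectin), Ltbp1 and Loxl2 were also past 2-fold higher in both libraries, with log2 ratios between 1.10 and 1.56.

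Some single genes of muscle and metabolism were also among the 80 higher genes. As lists, 0 of 16 sarcomere genes and 0 of 13 glycolysis and hypoxia genes were past 2-fold. Sln, which encodes sarcolipin, an inhibitor of the sarcoplasmic calcium pump that is best known from atrial muscle, was at 60.7 and 56.1 CPM against 2.02 and 2.36 CPM. Its UMIs were concentrated: the 45 control cells with the most Sln UMIs held 74.1% of them, and the 37 such H2CKO cells 74.3%. Mybpc1, the slow skeletal form of myosin-binding protein C, was at 39.9 and 31.7 CPM against 2.36 and 0.919 CPM. Casq2, which encodes the calcium-storing protein calsequestrin of cardiac muscle, was at 35.5 and 40.4 CPM against 10.55 and 13.1 CPM. Csrp2, a LIM-domain protein gene of smooth muscle, was at 1587 and 1690 CPM against 611 and 524 CPM. Cox4i2 and Ndufa4l2, the genes of hypoxia-linked mitochondrial subunits, had log2 ratios of 2.74 and 2.85 and of 2.05 and 2.11.

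The ligand side of the cushion-inducing signals was represented outside the rule by Tgfb2. Its level was 250 CPM (242 to 259) in control cells and 176 CPM (167 to 186) in H2CKO cells, against 90.3 and 48.3 CPM in other cardiomyocytes. Wnt11, a Wnt ligand of outflow tract development, was at 26.1 and 28.5 CPM against 6.78 and 5.88 CPM. Cxcl12, a chemokine gene, was at 244 and 198 CPM against 88.2 and 72.8 CPM. Among receptors, Nrp2, a semaphorin co-receptor, was at 25.8 and 21.8 CPM against 3.50 and 2.28 CPM, whereas its relative Nrp1 was lower than in other cardiomyocytes, at 63.9 and 37.3 CPM against 110 and 71.5 CPM. Fzd1, a Wnt receptor gene, had log2 ratios of 1.38 and 1.46.

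Genes that respond to BMP signalling were high beside the ligand. Of the 10 compared members of a BMP pathway list without Bmp4, 9 were above 0 in both libraries. Past 2-fold were 4 (Id1, Id3, Smad7 and Bambi), and the list median was 1.14 in the control and 0.90 in H2CKO. Over all compared genes, 45.64% were below 0 in the control and 45.92% in H2CKO, and 1.54% were past 2-fold higher in both. Id1, an inhibitor of differentiation induced by BMP, was at 110 CPM in the control and 87.5 CPM in H2CKO outflow-tract-like cells, against 37.9 and 35.8 CPM. Id3 was at 197 and 166 CPM against 68.5 and 63.3 CPM. Both were high in cells that also held 4 or more mesenchymal or epicardial markers. In the remaining cells Id1 was at 69.8 and 78.9 CPM and Id3 at 102 and 142 CPM, so their order between genotypes turned. The log2 ratios to the other cardiomyocytes treated alike were then 1.56 and 1.15 for Id1 and 1.46 and 1.35 for Id3. Smad7, an inhibitory Smad, was at 129 and 94.4 CPM against 48.7 and 39.1 CPM, and Bambi, a decoy receptor, at 235 and 283 CPM against 108 and 115 CPM. Msx2, a transcription factor gene induced by BMP, was at 33.6 and 41.5 CPM against 9.06 and 7.84 CPM. Tbx2, another such gene, was at 22.2 and 27.1 CPM against 7.12 and 7.15 CPM. Both reached 20 CPM only in the outflow-tract-like cells, so their direction was set by the filter. A primary and conducting myocardium list was also higher, at 697 and 572.5 CPM in sum against 344 and 329 CPM. Its 4 compared genes had medians of 1.06 and 0.75. Bmp7 was the only compared member below 0 in both, with log2 ratios of -0.01 and -0.07.

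The other developmental lists were smaller. In several, the members past 2-fold reached the limit of 20 CPM only in the group where they were high (Wnt11, Crabp1, Tbx2, Msx2, Fzd1 and Nrp2 in outflow-tract-like cells, and Irx4, in the control, in the other cardiomyocytes), so their direction was set by the filter and no count is given for those lists. Of the second heart field genes, Mef2c was at 230 CPM against 198 CPM and Wnt5a at 73.0 CPM against 51.0 CPM in the control. The H2CKO values were 179 against 149 CPM and 34.7 against 32.1 CPM. The progenitor genes Tbx1, Fgf8 and Fgf10 were too low to compare. Crabp1, which encodes a retinoic acid binding protein, was at 70.0 and 43.1 CPM against 5.597 and 3.82 CPM. Of the 4 compared TGF-beta and cushion-inducing genes, Tgfb2 was past 2-fold. IGF genes had medians of 0.27 and 0.16, with Igfbp5, an IGF binding protein gene, at 909 and 695 CPM against 211 and 167 CPM.

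Several genes of ventricular working muscle were lower. Nppa, Nppb, Gja1 and Smpx of the ventricular list were past 2-fold lower in both libraries. Nppa, which encodes the natriuretic peptide ANF of trabecular and atrial muscle, was at 227 CPM in control and 695 CPM in H2CKO outflow-tract-like cells, against 1057 and 2624 CPM in the other cardiomyocytes. Gja1, the gap junction gene connexin 43, was at 52.7 and 22.1 CPM against 170 and 86.5 CPM. Irx4, a ventricular transcription factor gene, was at 19.4 and 23.5 CPM against 50.2 and 56.3 CPM. Hey2, a compact muscle transcription factor gene, was at 33.6 and 21.9 CPM against 70.2 and 61.4 CPM. Myl2, the ventricular regulatory light chain gene, was at 3817 and 6476 CPM against 7617 and 11970 CPM, which left it on average at a high level in the group. Compared ventricular genes not below 0 in both libraries were Myl3, with log2 ratios of 0.10 and 0.14, and Lbh, with 0.18 and -0.08. Cited1, Nppb, Smpx and Mb (myoglobin) were past 2-fold lower as well. At a sarcomere limit of 5% the direction turned for Mb (0.07 and 0.11) and, in H2CKO, for Wnt11 (-0.11) and Tbx2 (-0.03).

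**Figure D3:**
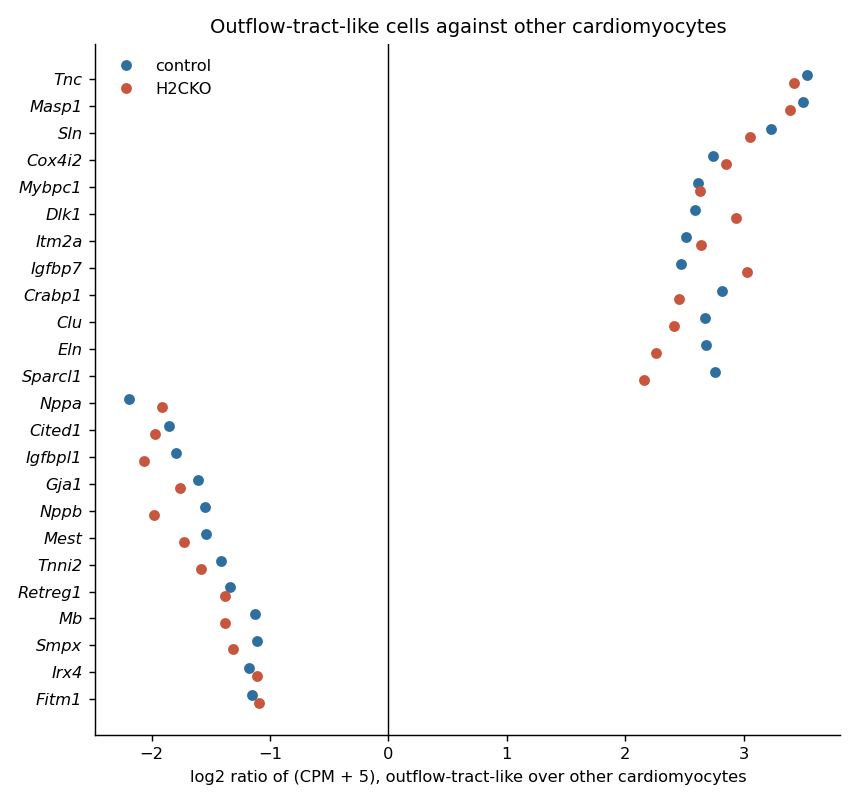
Log2 ratio of (CPM + 5) in outflow-tract-like cells over other cardiomyocytes (horizontal axis) for the 12 highest and 12 lowest genes outside the rule (vertical axis), with 1 point per library. The genes were chosen by the smaller ratio of the 2 libraries, with the same sign in both, so the shared direction is part of the choice. Control and H2CKO ratios run from 3.53 and 3.42 for Tnc to -2.19 and -1.91 for Nppa, and Sparcl1 is at 2.76 and 2.16.

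Sarcomere genes were present in both groups by the rule. A list of 16 sarcomere genes, all but Actc1 outside the rule, had medians of 0.07 and 0.06, and none was past 2-fold (0 of 16). Over all 5202 compared genes, 45.64% were below 0 in the control and 45.92% in H2CKO. In both libraries at once, 1.54% were past 2-fold higher and 0.269% lower. Of 6 compared smooth muscle genes, 4 were above 0 in both libraries, which does not set so short a list apart. Tagln was at 1936 and 1498 CPM against 1281 and 692 CPM, and Acta2 at 3199 and 3572 CPM against 2529 and 1924 CPM. Among atrial genes, Sln was higher and Nppa lower, as above, and Myl4 had log2 ratios of 0.04 and 0.11. Among calcium handling genes, Gja1 was past 2-fold lower and Ryr2, the calcium release channel gene, was at log2 ratios of -0.42 and -0.77, while Casq2, given above, reached 20 CPM in the outflow-tract-like cells alone. All 12 G2 and M phase genes and 11 of 12 S phase genes were below 0 in both libraries, by small amounts (medians of -0.19 and -0.13, and of -0.14 and -0.18). Glycolysis and hypoxia genes were above 0 for 11 of 13 members, with medians of 0.35 and 0.47 and none past 2-fold (0 of 13). The 3 compared neuregulin receptor and target genes had medians of 0.24 and 0.13.

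RNA of mesenchymal and epicardial genes was present in part of the group, at a higher level in the control. The 10 cushion mesenchyme markers summed to 513 CPM in control and 145 CPM in H2CKO outflow-tract-like cells, against 147 and 44.1 CPM in the other cardiomyocytes, and 0 of the 10 were at 0 counts. Of the 12 markers Postn, Sox9, Twist1, Hapln1, Col3a1, Pdgfra, Wt1, Upk3b, Upk1b, Tbx18, Aldh1a2 and Tcf21, 4 or more were detected in 117 of the 447 control cells (26.2%, 22.2 to 30.5) and in 24 of the 370 H2CKO cells (6.49%, 4.20 to 9.50). Those cells were deep, at a median of 50084 UMIs in the control and 31100.5 in H2CKO, and Scrublet marked 67 and 15 of them as doublets. In all, it marked 70 control (15.7%) and 30 H2CKO (8.11%) outflow-tract-like cells. Neural crest markers summed to 14.0 and 8.65 CPM, with Foxd3 and Tfap2b at 0 in both libraries and Sox10 and Tfap2a also at 0 in H2CKO. Pharyngeal epithelium markers summed to 0.539 and 0.752 CPM, white blood cell markers to 0.607 and 5.14 CPM, and the endothelial genes of the rule to 19.2 and 18.9 CPM. The erythroid list summed to 2642 and 3469 CPM, with all 4 compared genes slightly below 0 (medians of -0.16 and -0.10).

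The group was not uniform along the sarcomere share on which it was selected. From cells with 2 to 3% sarcomere UMIs to cells with 5% or more, Acta2 went from 2181 to 6467 CPM in the control and from 2026 to 6670 CPM in H2CKO. Itm2a, a transmembrane protein gene, went from 581 to 1798 CPM and from 363 to 1355 CPM. Isl1 went from 30.1 to 88.9 CPM and from 27.9 to 95.6 CPM, and Sparcl1 from 24.3 to 163 CPM and from 14.2 to 83.5 CPM. In the opposite direction, Hey2 went from 46.6 to 6.93 CPM in the control, and in H2CKO from 29.2 CPM to 0 UMIs in 61 cells. Col3a1, a collagen gene of the cushions, went from 154 to 10.7 CPM and from 28.8 to 6.59 CPM. Tgfb2 and Hand2 changed little, with Hand2 at 111 and 107 CPM in the outer control bands and 87.7 and 87.9 CPM in those of H2CKO. The median UMIs per cell went down along the same axis, from 42832 to 18461 in the control and from 18605 to 14499 in H2CKO, and doublet marks from 55 of 127 and 14 of 95 cells to 1 of 73 and 2 of 61 cells. The part of depth and doublets in these gradients was not tested.

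**Figure D4:**
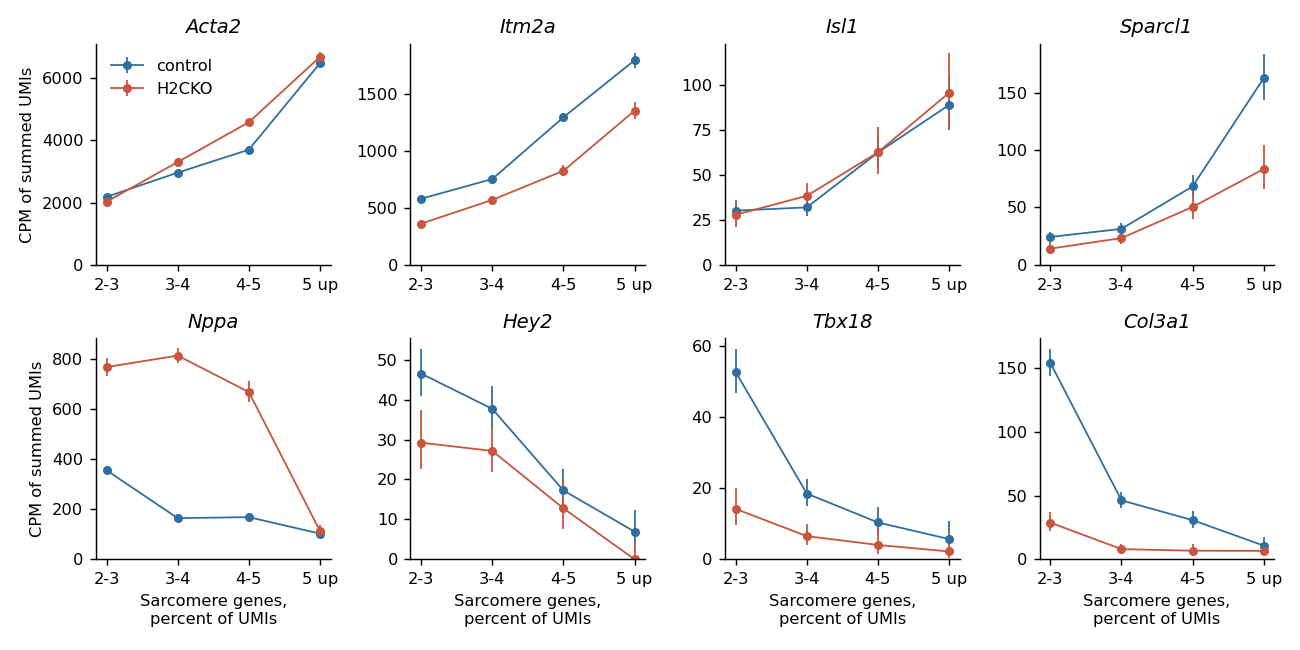
CPM of summed UMIs (vertical axis) of 8 genes in outflow-tract-like cells split by the percent of UMIs from the 5 sarcomere genes (horizontal axis), control in blue and H2CKO in red; bars are 95% Poisson intervals. Acta2, Itm2a, Isl1 and Sparcl1 are highest in the band from 5% up in both libraries, where Nppa, Hey2, Tbx18 and Col3a1 are lowest.

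Cells with an Isl1 UMI differed from the remaining members in the same direction in both libraries for a set of genes. Bmp4 was at 237 against 120 CPM in the control and 344 against 173 CPM in H2CKO. Sparcl1 was at 68.7 against 24.1 CPM and 48.3 against 19.5 CPM. Itm2a was at 1133 against 598 CPM and 871 against 464 CPM, and Crabp1 at 84.2 against 50.1 CPM and 66.6 against 23.2 CPM. Lower with Isl1 were Irx4, at 13.1 against 28.3 CPM and 14.2 against 31.3 CPM, and Fhl2, a LIM-domain gene of working muscle, at 86.3 against 139 CPM and 101 against 189 CPM. Nppa differed in direction, with 185 against 286 CPM in the control and 878 against 540 CPM in H2CKO. Median depths of the Isl1-positive and Isl1-negative cells were 29898 and 29100.5 UMIs in the control and 17632.5 and 18602.5 in H2CKO. Because Isl1 detection is part of the rule, cells without it had to carry 3 of the other 4 markers.

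H2CKO was compared with the control within the outflow-tract-like cells. Among the genes that the design bears on directly, Hand2 had a log2 ratio of -0.43: the control level was 110 CPM (105 to 116) and the H2CKO level 80.8 CPM (74.6 to 87.3). In the other cardiomyocytes it was at 76.4 and 75.3 CPM. Cardiomyocytes are not the cells in which this Cre is expected to act, and Hand2 RNA was present in both libraries. GFP was at 13.1 CPM in the control, which carries no Cre, and 21.1 CPM in H2CKO, so its control level marks background. Cells with a GFP UMI were 30.87% of the control and 18.65% of the H2CKO group, without thinning and at the greater control depth. Tomato was at 15.2 and 5.39 CPM, and in the other cardiomyocytes at 16.9 and 4.61 CPM.

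Of 5982 compared genes, 13 were past 2-fold higher (0.217%) and 91 past 2-fold lower (1.52%) in H2CKO. In the other cardiomyocytes, 12 of 5598 were past 2-fold higher (0.214%) and 34 past 2-fold lower (0.607%). The median gene stood at -0.18 in outflow-tract-like cells and at -0.16 in the other cardiomyocytes, and the ratios below are best read against that shift. Long genes lay lower: the rank correlation of the log2 ratio with gene span across 5979 genes was -0.52, and -0.48 in the other cardiomyocytes, given as a description since all genes share the same 2 libraries. With the span trend taken out, 5 genes were past 2-fold higher and 88 lower, of which 58 were among the 104 above. Centred on the median gene, 26 were higher and 41 lower.

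The direction was the same in the other cardiomyocytes for nearly all of these genes. All 13 higher genes were above 0 there and 8 of them past 2-fold, and 90 of the 91 lower genes were below 0 there and 27 of them past 2-fold. Over all compared genes, 66.4% were below 0 in the other cardiomyocytes and 66.05% in outflow-tract-like cells. At the stated limit of 1 log2 unit beyond the other cardiomyocytes, only Egr1 and Tbx18 passed, both lower (2 genes, 0.0334% of those compared). Tbx18 reached the limit of 20 CPM in the control alone, so its direction was set by the filter. Neither passed after thinning to 5000 UMIs, where Egr1 was at -0.31 and Tbx18 at -0.37, with the filter at 100 CPM, which both fell below, or at a sarcomere limit of 5%, where Tbx18 was at -0.57 and Egr1, still past 2-fold, at -1.41. Tbx18 also missed the limit with an equal gene minimum, without doublets, with 4 of 5 markers, over all filtered barcodes, without Rgs5 in the rule, after thinning to 10000 UMIs, after centring and as a mean of cells.

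Egr1, an immediate early transcription factor gene, was at 78.1 CPM (73.7 to 82.7) in control and 23.3 CPM (20.1 to 26.9) in H2CKO outflow-tract-like cells. That is 3.35-fold lower in H2CKO (2.87 to 3.93). In the other cardiomyocytes it was at 48.0 and 48.5 CPM. The log2 ratios were -1.55 and 0.01. Fos, also an immediate early gene, was at 94.0 and 45.1 CPM against 59.8 and 56.4 CPM. Of 8 compared genes of dissociation stress, 1 was past 2-fold lower (Egr1), and the median was -0.38 against -0.03 in the other cardiomyocytes. Jun (207 and 216 CPM) and Ier2 (84.3 and 103 CPM) were not lower. Within the class comparison these stress genes had medians of 0.60 in the control and 0.26 in H2CKO over 7 genes.

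Tbx18, a transcription factor gene of the epicardium and of some muscle, was at 27.7 CPM (25.1 to 30.5) and 7.65 CPM (5.85 to 9.83), against 24.9 and 18.1 CPM in the other cardiomyocytes. Leaving out the cells with 4 or more mesenchymal or epicardial markers, a step chosen after seeing the data, left Tbx18, itself 1 of the 12 markers, at 5.11 and 3.77 CPM, a log2 ratio of -0.20, and Egr1 at 37.2 and 18.4 CPM, a log2 ratio of -0.85. In the cells left, 330 control and 346 H2CKO, 0 genes passed the limit beyond the other cardiomyocytes. The log2 ratios of both genes were thus nearer to 0 without these cells.

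The mesenchymal and epicardial genes themselves were lower in H2CKO. The 10 cushion mesenchyme genes ranged from 13.4 to 96.8 CPM in control and from 2.38 to 36.0 CPM in H2CKO outflow-tract-like cells. Of the 8 epicardial genes, Sparc was at 911 and 855 CPM, and the other 7 ranged from 11.2 to 44.0 CPM and from 1.13 to 8.40 CPM. Most of these genes reached the limit of 20 CPM in the control alone, so no count of them past 2-fold is given. Control cells held Col3a1 at 78.0 CPM (73.6 to 82.6) and H2CKO cells at 13.3 CPM (10.9 to 16.1). Dcn, the gene of decorin, was at 39.8 and 6.40 CPM, and Upk3b, an epicardial uroplakin gene, at 44.0 and 8.40 CPM. Sox9, a transcription factor gene of cushion mesenchyme, was at 47.1 and 10.9 CPM. These genes were lower in the other cardiomyocytes too. The log2 ratios of Col3a1, Dcn, Upk3b and Sox9 were -2.18, -1.97, -1.87 and -1.71, against -1.5, -1.31, -1.42 and -0.98 there. Cells with 4 or more of the 12 markers made up 10.5% of the other cardiomyocytes in the control and 2.59% in H2CKO. Outside these lists, Kitl, the gene of the Kit receptor ligand, was at 27.9 and 3.39 CPM, and Fat4, a large cadherin gene, had a log2 ratio of -1.32 against -0.44. Col3a1, Sox9 and Upk3b are among the 12 markers by which cells with 4 or more were set apart, so their low levels without those cells (Sox9 at 2.78 and 3.49 CPM) follow from the selection. Dcn, which is not, was then at 1.11 and 0.977 CPM. Such cells numbered 117 in the control and 24 in H2CKO, and less material from other cells and lower levels within muscle cells cannot be told apart in the sums.

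Higher in H2CKO was Nppa. Control cells stood at 227 CPM (220 to 235) and H2CKO cells at 695 CPM (677 to 714), a 3.06-fold difference (2.93 to 3.19), against 2.48-fold in the other cardiomyocytes. Its UMIs were concentrated, although 219 of the 447 control and 247 of the 370 H2CKO cells had at least 1. The 37 H2CKO cells with the most Nppa UMIs held 92.2% of them, and the 45 such control cells held 83.8%. The median cell was at 0 CPM in the control and 63.3 CPM in H2CKO. In cells with at least 5% sarcomere UMIs the levels were 103 and 113 CPM. The difference thus lay in the cells with fewer sarcomere UMIs.

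Krt8, a keratin gene, had the largest excess over the other cardiomyocytes among the higher genes. It missed the limit of 1 log2 unit beyond them. After thinning it passed that limit, as 1 of 8 higher genes at 5000 UMIs and 1 of 3 at 10000. Control cells stood at 54.3 CPM (50.6 to 58.2) and H2CKO cells at 117 CPM (109 to 124), against 16.5 and 21.9 CPM, with log2 ratios of 1.04 and 0.32. It was detected in 52.8% of control and 61.4% of H2CKO cells, and the 45 and 37 cells with the most UMIs held 48.8% and 46.7% of them. The median cell was at 19.4 CPM in the control and 55.9 CPM in H2CKO, and leaving out the cells with mesenchymal and epicardial RNA gave 55.6 and 123 CPM. Rrad, a small GTPase gene that restrains calcium channels, was at 161 and 336 CPM against 186 and 271 CPM. Acta1, the skeletal actin gene, was at 641 and 1173 CPM against 634 and 756 CPM, a log2 ratio of 0.87 that missed the limit.

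Among the outflow-tract markers, Rspo3 was at 477 CPM in the control and 440 CPM in H2CKO and Isl1 at 43.4 and 46.5 CPM. Bmp4 was at 188 and 251 CPM, a log2 ratio of 0.41. Sema3c had a log2 ratio of -0.61, with 206 CPM (199 to 213) in control cells and 134 CPM (126 to 142) in H2CKO cells, while in the other cardiomyocytes it was at 13.9 and 16.4 CPM (0.18). As the cells were selected on these genes, their levels are a description. The 12 leading genes of the group outside the rule lay on both sides of 0, with 0 past 2-fold. They were chosen for a high ratio in both libraries. Over all compared genes 0.217% were past 2-fold higher and 1.52% lower, so 0 of 12 is near the share over all genes. The lowest log2 ratios were those of Eln and Crabp1 (both -0.64), Tnc (-0.60), Sparcl1 (-0.55) and Itm2a (-0.48). Mybpc1 (-0.29), Masp1 (-0.18) and Sln (-0.11) were nearer to 0. Cox4i2 (0.23), Igfbp7 (0.30), Dlk1 (0.31) and Clu (0.50) were above it.

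Signalling genes were compared list by list. Over all 5982 compared genes, 0.217% were past 2-fold higher and 1.52% lower. The counts in this and the next paragraph are to be read against these shares, and a count of 0 in such short lists is near them. Of 11 compared BMP pathway genes, 0 were past 2-fold, with a median of -0.31 against -0.11 in the other cardiomyocytes, with Bmp2 the lowest at 47.3 and 21.8 CPM and Bambi above 0 at 235 and 283 CPM. The 5 compared TGF-beta and cushion-inducing genes had a median of -0.58 against -0.63. Vcan, the gene of the cushion proteoglycan versican, was past 2-fold lower, at 733 and 364 CPM. Inhba, an activin subunit gene, was at 22.2 and 5.39 CPM. It reached the limit of 20 CPM in the control alone, so its direction was set by the filter. Tgfb2 was at 250 and 176 CPM, a log2 ratio of -0.50 against -0.84 in the other cardiomyocytes. The 8 compared IGF genes had a median of -0.635 against -0.493. Igf1 and Igf2 were past 2-fold lower, the growth factor gene Igf2 at 948 and 455 CPM, against 814 and 367 CPM in the other cardiomyocytes. Of 14 compared cardiac transcription factor genes, 1 was past 2-fold lower, Tbx20, at 272 CPM (264 to 281) and 128 CPM (121 to 136), with a list median of -0.43 against -0.11. Nkx2-5 was at 156 and 204 CPM and Gata6 at 220 and 160 CPM. The 4 compared retinoic acid genes had a median of -0.56 against -0.42. None of 6 Wnt and R-spondin (median -0.40), 4 semaphorin and plexin (-0.44), 3 second heart field (-0.35), 6 primary and conducting myocardium (-0.26) or 3 neuregulin (-0.31) genes was past 2-fold.

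Muscle genes were divided. Long genes lay lower over all compared genes, as given above (rank correlation with gene span -0.52). No value in this paragraph, including those of Ttn, Ryr2 and Slc8a1, has that trend taken out. Of the same 16 sarcomere genes, Ttn alone was past 2-fold lower, at 9902 and 4697 CPM, and the median was 0.10 against 0.06 in the other cardiomyocytes. Myh6, the alpha myosin heavy chain gene and part of the rule, was at 953 and 461 CPM against 1387 and 601 CPM. Myl2 was at 3817 and 6476 CPM, a 1.70-fold difference against 1.57-fold in the other cardiomyocytes. Of 10 ventricular genes, Nppa was past 2-fold higher and Gja1 past 2-fold lower, with a median of -0.26. Of 7 calcium handling genes, Gja1 was past 2-fold lower and the median was -0.74 against -0.56, with Ryr2 at 233 and 121 CPM and Slc8a1, the sodium-calcium exchanger gene, at 1142 and 581 CPM. Of 5 atrial genes, Nppa alone was past 2-fold, and of 6 smooth muscle genes 0 were, with a median of -0.23 against -0.51. The 12 S phase genes had a median of 0.11, the 12 G2 and M phase genes 0.15, the 13 glycolysis and hypoxia genes 0.15 and the 4 erythroid genes 0.23, with 0 past 2-fold in each.

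**Figure D5:**
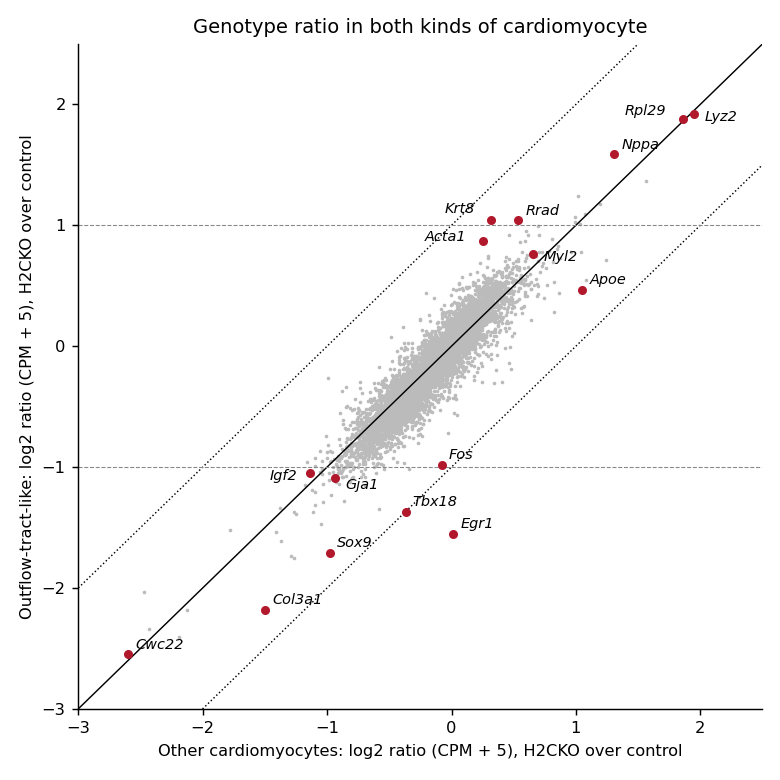
Log2 ratio of (CPM + 5), H2CKO over control, in other cardiomyocytes (horizontal axis) and outflow-tract-like cells (vertical axis), with 1 point for each of 5453 genes compared in both. The solid line marks equal ratios, the dotted lines 1 log2 unit to either side and the dashed lines 2-fold; Egr1 and Tbx18 lie past or at the lower dotted line, and Gm10260, at -5.76 and -6.17, lies outside the axes.

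Many of the genes with the most extreme ratios were shared by all cardiomyocytes. Of the genes past 2-fold, 3 lower ones have names starting with Gm and 3 higher ones are mitochondrial. How reads were assigned to these genes was not tested. Gm10260 was at 306 and 0.752 CPM in outflow-tract-like cells and 395 and 0.551 CPM in the other cardiomyocytes. Cwc22, Tpm3-rs7, Gm8797, Eif3j2 and Gm11361 had log2 ratios between -2.55 and -2.03, and between -2.60 and -2.13 in the other cardiomyocytes. Rpl29, a ribosomal protein gene, had a log2 ratio of 1.88, against 1.86 in the other cardiomyocytes, and the mitochondrial gene mt-Nd3 had 1.37 against 1.56. The median mitochondrial share of UMIs was 4.73% in control and 7.11% in H2CKO outflow-tract-like cells, and 4.72% and 7.26% in the other cardiomyocytes. Lyz2, a gene of white blood cells, was at 4.79 and 32.0 CPM, and at 7.32 and 42.7 CPM in the other cardiomyocytes. Tuba1a, a tubulin gene, was at 625 and 1315 CPM, with 1.07 against 0.99. Alad, an enzyme gene of haem synthesis, the globin gene Hbb-bs and Smim5 had log2 ratios of 1.24, 1.18 and 1.08. The part of differences in handling or counting between the libraries in these shared ratios was not tested.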

How the data were processed

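Single-cell 3′ libraries, 1 per genotype, were analysed. What the authors deposited for each is a table of raw UMI counts by gene and barcode and, for the barcodes they kept, a pair of embedding coordinates, which are a score with no unit. Cell Ranger 5.0.1, Seurat 4 and the build GRCm38.p6 are named in the submitters' processing notes; their settings are not given in the sources used here. The kept cells had at least 2501 genes in the control and 2002 in H2CKO. Of 22401 features, 22285 matched a gene symbol.

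UMIs were summed per group and library and scaled to CPM. Ratios are log2 of (CPM + 5), for genes with at least 20 CPM and 20 UMIs in the higher group. Intervals are exact Poisson, Clopper-Pearson or conditional binomial ones (scipy 1.17.1) at 95%. Outflow-tract-like cells held 14831327 control and 7974058 H2CKO UMIs. Scrublet (scanpy 1.11.5, expected rate 6%) marked 920 control barcodes. Its own threshold marked 0 in H2CKO, where the top 5% (636) were taken, so doublet counts are not on the same footing in both libraries; no cell was removed. The scripts were tested on simulated data.

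Named genes were the markers, sarcomere genes, Hand2 and reporters; the 12 highest and 12 lowest against other cardiomyocytes by the smaller ratio of the 2 libraries; the 10 highest and 10 lowest between genotypes; the 6 highest and 6 lowest differences between classes; and members of 25 gene lists past 2-fold or named for their role. Fn1, Ltbp1, Loxl2, Csrp2, Ndufa4l2, Cxcl12 and Fhl2 fall outside this rule and were chosen after their values were seen. Results on some genes under the rule are not reported here. The members and lists were chosen with earlier results of these data known. Alternatives covered the rule's limits and markers, depth, doublets, the cells kept, the pseudocount, the expression filter and the scaling; thinning to 10000 UMIs and leaving out cells with mesenchymal or epicardial markers were added after seeing the data.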

Additional observations from a re-analysis of the deposited data

Results flagged for a closer look

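Egr1 was lower in H2CKO in outflow-tract-like cells and nearly equal in the other cardiomyocytes. Its log2 ratio of H2CKO over control was -1.55 in outflow-tract-like cells and 0.0144 in the other cardiomyocytes, where the ratio of levels was 1.01 with an interval of 0.959 to 1.07. With 1 library per genotype the difference was not tested. Without the cells that held 4 or more mesenchymal or epicardial markers, a step chosen after seeing the data, the value in outflow-tract-like cells was -0.85. After thinning to 5000 UMIs it was -0.31, and at a sarcomere limit of 5% -1.41.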

How the results depend on the processing

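With 1 library per genotype no library could be left out, and the intervals cover counting error only. No paired analysis was possible because each genotype has a single library. The share of outflow-tract-like cells among cardiomyocytes was higher in the control than in H2CKO under every alternative run. It was 7.511% and 4.189% after thinning to 5000 UMIs and 12.35% and 5.931% at 10000. It was 60.83% and 53.98% with a sarcomere limit of 5%, 10.14% and 3.774% with 4 of 5 markers required, and 17.74% and 8.511% without Isl1 in the rule. The control share was 14.92% over all filtered barcodes and 16.69% with mesenchymal and epicardial cells left out.

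The count of genes past 2-fold between genotypes, 104 as reported, was 362 and 258 after thinning to 5000 and 10000 UMIs, 351 at a sarcomere limit of 5%, 200 with a pseudocount of 1 CPM and 32 with a filter at 100 CPM. Centred on the median gene it was 67, of which 26 were higher and 41 lower (38.81% higher, against 12.5% as reported and 25% with the filter at 100 CPM). The count of genes 1 log2 unit beyond the other cardiomyocytes, 2 as reported, was 48 and 7 after thinning, 125 at the sarcomere limit of 5% and 4 without doublets. After thinning to 5000 UMIs and at the sarcomere limit of 5%, neither Egr1 nor Tbx18 was among them, although Egr1 was still at -1.41 at the sarcomere limit of 5%. It was 1 with an equal gene minimum, without Rgs5 in the rule, centred on the median gene or as a mean of cells, and 0 with mesenchymal and epicardial cells left out or with the filter at 100 CPM. The count against other cardiomyocytes, 94 as reported, was 150 after thinning to 5000 UMIs and 29 with the filter at 100 CPM. The stricter sarcomere limit left 73 and 61 outflow-tract-like cells, and thinning to 5000 UMIs 172 and 162, which limits the depth of those counts.

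At the sarcomere limit of 5%, 4 class ratios changed sign: Mb was at 0.07174 in the control and 0.1112 in H2CKO, and in H2CKO Tbx2 was at -0.03008 and Wnt11 at -0.1062. With mesenchymal and epicardial cells left out, the genotype ratio of Sox9 (0.1269) and the median of the epicardium list (0.06166) changed sign, as did the genotype ratios of Id1 (0.165) and Id3 (0.452). Sox9 and epicardial genes such as Upk3b and Tbx18 are among the 12 markers used to leave cells out. Their levels without those cells therefore follow from the selection. The cause of the other changes was not tested.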
